A study of Mus musculus with 11 samples.

Results

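The glycosaminoglycan synthesis genes described here are 40 mouse genes that build and sulfate heparan sulfate and chondroitin or dermatan sulfate chains. They were chosen by symbol from a list, with earlier results of these data known, and all 40 were found in the merged count table of 22600 genes. Of the 40, 5 make the linker that joins a chain to its core protein, 17 belong to the heparan sulfate branch, 15 to the chondroitin and dermatan sulfate branch, and 3 supply sulfate. RNA came from whole distal tibiae of 4 Control mice, whose genotype is labelled BMAd-WT, and 7 BMAd-DTA mice. All were 24 weeks old, fed ad libitum, and on a mixed C57BL6/SJL background. All mice of the study carried Osterix-FLPo and FAC, an FLPo-dependent Cre at the Adipoq locus, which together give Cre activity in bone marrow adipocytes (BMAd-Cre). BMAd-DTA mice also carried ROSA-DTA, a diphtheria toxin A gene that Cre switches on and that kills the cell. Recombination by this Cre becomes more complete with age and also reaches some precursors of the marrow adipocyte lineage, and each library is a mixture of bone, cartilage, marrow and any attached tissue.

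Sulfated glycosaminoglycans are long sugar chains built in the Golgi on proteoglycan core proteins. A linker sugar sequence is added first, the chain is extended as heparan sulfate or as chondroitin sulfate, and sulfotransferases then place sulfate at set positions with 3'-phosphoadenosine 5'-phosphosulfate (PAPS) as the donor. In the skeleton the chondroitin sulfate chains of aggrecan hold water in cartilage, heparan sulfate binds growth factors around osteoblasts and marrow cells, and inherited loss of EXT1 or EXT2 causes multiple osteochondromas.

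No member passed the test across all genes. Counts were compared by the quasi-likelihood test of edgeR, with p adjusted by Benjamini-Hochberg across the 16496 genes tested, and 39 members had enough counts to enter it. None of the 39 had an adjusted p under 0.05, while 13 genes did over the whole table, which is 0.0788% of the genes tested. The smallest adjusted p among members was 0.0992, for Hs6st1. Members with an unadjusted p under 0.05 numbered 4 of 39, against 16.4% of all genes tested. Of these, Ext1, Ndst1 and Ust were fitted higher in BMAd-DTA mice, where 7.89% of all genes were, and Hs6st1 was fitted lower, where 8.53% of all genes were. DESeq2, which the authors used, called 2 of the 40 members, Hs6st1 lower and Ust higher, and gave no adjusted p to Ndst3, Hs3st3a1 and Hs6st2. It called 5.42% of the 15583 genes to which it gave an adjusted p, so the members called were close to that share. In no member were all BMAd-DTA libraries on one side of all Control libraries, which 2.81% of all genes showed.

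The promoters of Hs6st1 and Ust are shown because these were the 2 members called by DESeq2. Each run is the 250 bases before the gene's start in RefSeq on GRCm38.p6, read 5′ to 3′ on the gene's strand, chr1:36068150-36068399 on the plus strand for Hs6st1 and chr10:8518826-8519075 on the minus strand for Ust. Capitals mark the GC box, GGGCGG or its reverse complement CCGCCC, which Sp1-family factors are known to bind.
Hs6st1: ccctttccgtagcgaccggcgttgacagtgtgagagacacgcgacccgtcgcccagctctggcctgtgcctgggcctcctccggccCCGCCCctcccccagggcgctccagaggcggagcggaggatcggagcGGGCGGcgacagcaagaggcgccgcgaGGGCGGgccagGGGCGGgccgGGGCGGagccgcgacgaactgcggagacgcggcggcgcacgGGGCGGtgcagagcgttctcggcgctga
Ust: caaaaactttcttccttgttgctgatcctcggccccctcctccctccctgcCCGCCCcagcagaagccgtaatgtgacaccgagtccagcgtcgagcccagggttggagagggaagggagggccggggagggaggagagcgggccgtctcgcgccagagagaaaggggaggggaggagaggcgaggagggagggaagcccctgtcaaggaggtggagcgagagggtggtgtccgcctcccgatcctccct
The Hs6st1 run holds 6 GC boxes and 76.4% G and C, and the Ust run holds 1 GC box and 66.4% G and C. Windows of 300 bases around the start, 250 before and 50 after it, were found for 32 of the 40 members, 9 of which had 2 windows, the others being Ext1, Chsy3, Xylt1, Slc26a2, Ndst1, Sulf1, Csgalnact1 and Extl3. A GC box on either strand was present in at least 1 window of 24 of the 32 genes, or 75%, and of 38.2% of the 27025 genes with a window. The letters TGTGGT, the core of the site of RUNX factors, were found on either strand in 2 of the 32 genes, or 6.25%, against 18.9% of all genes, and TATAAA, searched on either strand, also in 2 genes, or 6.25%, against 15.7%. Taking the median of a gene's windows where it had 2, the members had a median of 64.3% G and C and a median CpG ratio, observed over that from base composition, of 0.71, against 52.7% and 0.389 over all genes. These are matches of letters and not measured binding. The 27025 genes were not limited to the 16496 tested, while 39 of the 40 members were tested. No comparison with tested genes alone was made, so these shares do not set the members apart from other expressed genes.

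Fitted differences were small in most members. The log2 fold change of BMAd-DTA against Control was above 0 in 27 of the 39 tested members and below 0 in 12, with a median of 0.06, where the median over all genes was 0.00 and 50.4% were above 0. It lay within 0.2 of 0 in 31 members and went beyond 0.3 in 6. For 29 of the 39, the 95% interval of the log2 fold change stayed within 0.5 of 0 in either direction, which is a ratio between 0.707 and 1.41. The wider intervals were those of Ext1, Extl1, Ndst3, Hs3st3a1, Hs6st1, Chpf, Csgalnact1, Chst3, Chst7 and Ust. Over the 36 members with a mean of at least 50 counts, the median coefficient of variation between mice was 11.8% in Control and 11.3% in BMAd-DTA. Levels of the 40 members summed to between 1672 and 1774 CPM (counts scaled to a common library size after TMM) in Control and between 1735 and 1825 in BMAd-DTA mice, so the groups overlapped.

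**Figure D1:**
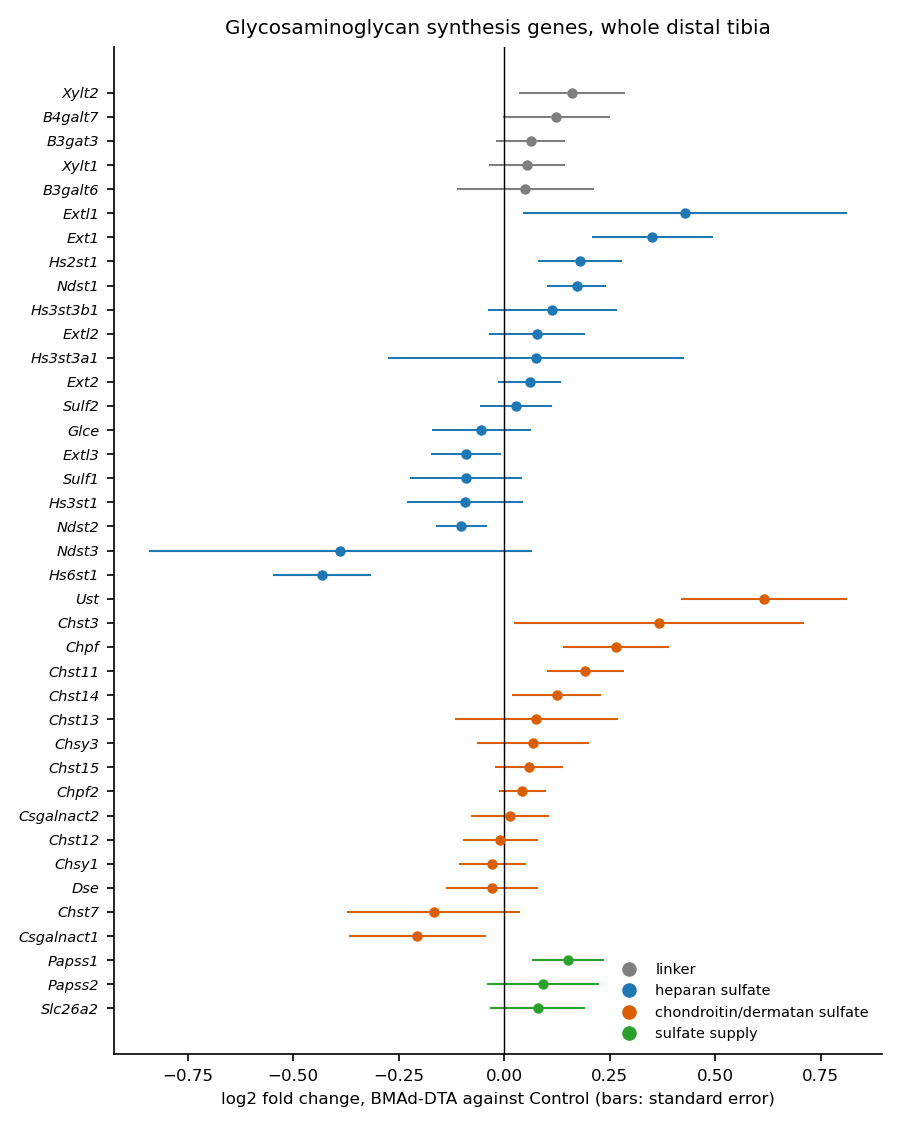
Log2 fold change of each of the 39 tested members, BMAd-DTA against Control, with bars of 1 standard error, grouped and coloured by branch and sorted within it. Most points lie within 0.2 of 0, Ust is the highest at 0.61 and Hs6st1 the lowest at -0.43.

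Some facts of the libraries bear on these values. Totals were 16969529 to 18637663 counts in Control and 17128711 to 18432805 in BMAd-DTA, and replicate libraries differed by more than sampling noise. The 4 Y-linked genes read had at most 1 count in any library and Xist at least 13810, so all libraries read as female, whereas the study describes the mice of this experiment as male. The 12 adipocyte markers were all fitted lower in BMAd-DTA mice, with summed levels of 773.1 to 1584 CPM in Control and 305.3 to 980.4 CPM in BMAd-DTA. The 12 osteoblast and osteocyte markers were all fitted higher, with sums of 3417 to 13740 CPM in Control and 16650 to 37110 CPM in BMAd-DTA. The chondrocyte sums were 453.0 to 923.7 CPM in Control and 1095 to 1349 CPM in BMAd-DTA. Most of that difference lay in Col2a1, at means of 216.8 and 468.1 CPM, and Col11a2, at 176.6 and 388.3 CPM. Of the 11 chondrocyte markers tested, 10 were fitted higher and 1 lower. The unadjusted p by edgeR was under 0.05 for 3, against 16.4% of all genes tested. Comp, Hapln1, Sox9 and Col10a1 had log2 fold changes of 0.07 to 0.19. Control replicate 1 stood apart in the osteoblast and chondrocyte sums, since it gave the 3417 and the 453.0. The other Control libraries had at least 11600 and 750.8 CPM. Most of the osteoblast and osteocyte sum came from Col1a1 and Col1a2, with Control means of 4720 and 3869 CPM. Without Control replicate 1, the edgeR log2 fold changes of Sost, Mepe and Spp1 were 0.87, 0.78 and 0.85, against 0.80, 0.77 and 0.77 with it. Those of the other osteoblast and osteocyte markers were smaller without it. Skeletal muscle sums ran from 21.21 to 1469 CPM in Control and from 21.38 to 1149 CPM in BMAd-DTA. Fewer cells of a type and less RNA per cell cannot be told apart in whole tissue.

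The linker genes were all detected and all 5 were fitted higher, none with an unadjusted p under 0.05. Their median log2 fold change was 0.06, and every 95% interval stayed within 0.5 of 0. Xylosyltransferases start the linker on the core protein, and both were expressed. Xylt2, with the largest fitted difference of the 5, had 16.5, 26.3, 30.1 and 24.7 CPM in Control replicates 1 to 4 and a lowest, median and highest value of 25.7, 26.6 and 29.7 CPM in BMAd-DTA mice. The BMAd-DTA values lay inside the range of Control, where replicate 1 was the low library, and the log2 fold change was 0.16 ± 0.13 (SE) with an adjusted p of 0.576 by edgeR. That value was 0.01 without Control replicate 1. Xylt1, its paralog, was at 0.05 on the log2 scale, and Xylt1 made up a median of 48.9% of the pair's level per kilobase in Control and 47.0% in BMAd-DTA.

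The galactosyltransferases B4galt7 and B3galt6 add the next sugars of the linker, and the glucuronyltransferase B3gat3 completes it. B3galt6 had 6.89, 6.30, 5.61 and 5.19 CPM in the Control libraries and 4.26, 6.19 and 7.87 CPM as the lowest, median and highest of BMAd-DTA. The groups overlapped at both ends, and the log2 fold change was the smallest of the linker genes at 0.05 ± 0.16 (SE). B3gat3 had 58.0, 49.8, 52.7 and 44.6 CPM in Control and 49.6, 52.3 and 60.6 CPM as the lowest, median and highest of BMAd-DTA. It was the most abundant linker gene per kilobase of exon, at 19.8 ± 2.16 CPM per kilobase (SD, n = 4) in Control and 20.7 ± 1.64 (SD, n = 7) in BMAd-DTA, above the range of the next gene. B4galt7 had a log2 fold change of 0.12.

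Across the heparan sulfate branch, 9 of the 16 tested members were fitted higher and 7 lower, and the median was 0.04 on the log2 scale. The unadjusted p was under 0.05 for 3 of the 16, Ext1, Ndst1 and Hs6st1, which is near the 16.4% of all genes tested. The 17th member, the 6-O-sulfotransferase gene Hs6st2, was close to the detection limit at 4 to 15 counts per library and was not tested. When Control replicate 1 was left out, 7 members of the branch were fitted higher and 9 lower, with a median of -0.01.

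Ext1 and Ext2 together form the polymerase that extends heparan sulfate. Ext1, on chromosome 15 at 53064038 to 53346159 on the minus strand of GRCm38, had 27.3, 36.6, 40.4 and 33.3 CPM in the Control libraries. In BMAd-DTA mice its lowest, median and highest values were 32.8, 42.0 and 55.2 CPM. Of the 7 BMAd-DTA libraries, 4 were above every Control library and the groups overlapped. The log2 fold change was 0.35 ± 0.14 (SE), with an unadjusted p of 0.0296 and an adjusted p of 0.239 by edgeR across all genes. Ext2 was higher per kilobase in both groups and had a log2 fold change of 0.06, so Ext1 made up a median of 31.1% of the pair in Control (28.2% to 35.3%) and 35.9% in BMAd-DTA (32.9% to 39.4%). Without Control replicate 1, the log2 fold change of Ext1 was 0.25 with an unadjusted p of 0.107 in the same edgeR fit.

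Of the EXT-like genes Extl1, Extl2 and Extl3, none had an unadjusted p under 0.05. Extl3, which begins heparan sulfate chains, was at -0.09 ± 0.08 (SE) on the log2 scale, and Extl2 was at 0.08. Extl1 had the largest fitted log2 fold change of the branch at 0.43 ± 0.38 (SE), with an adjusted p of 0.634 by edgeR. It had 1.65, 0.707, 2.07 and 0.933 CPM in Control and 1.002, 1.55 and 3.11 CPM as the lowest, median and highest of BMAd-DTA, which is 12 to 53 counts per library. At this depth its 95% interval of -0.40 to 1.26 includes values on both sides of 0.

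The Ndst enzymes remove acetyl groups from glucosamine and put sulfate on the nitrogen, the step on which the later modifications depend. Ndst1 had 128.0, 153.4, 153.2 and 138.6 CPM in Control and 143.5, 163.3 and 172.3 CPM as the lowest, median and highest of BMAd-DTA. The highest 5 of the 7 BMAd-DTA libraries were above every Control library, and the lowest library of all was Control replicate 1. Its log2 fold change was 0.17 ± 0.07 (SE), with an unadjusted p of 0.0282 and an adjusted p of 0.235 by edgeR. These were 0.12, 0.112 and 0.586 in the edgeR fit without Control replicate 1. The gene overlaps Rps14 on the other strand, and the counting used strand.

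Ndst2 was fitted lower, at -0.10 ± 0.06 (SE) on the log2 scale, with 4 of 7 BMAd-DTA libraries below every Control library and an unadjusted p of 0.117 in the edgeR fit across all genes. As a consequence of both values, Ndst1 made up a median of 53.7% of the Ndst1 and Ndst2 level per kilobase in Control (49.2% to 55.4%) and 58.2% in BMAd-DTA (54.4% to 60.6%). The ranges overlapped, and the difference in share was not tested. Ndst3 had a mean below 1 CPM in both groups. Its fitted log2 fold change of -0.39 had a 95% interval of -1.37 to 0.59.

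Hs6st1, which puts sulfate on the 6-O position of glucosamine, had the lowest fitted value of all members. It lies on chromosome 1 at 36068400 to 36106446 on the plus strand of GRCm38. Its level was 216.2, 166.1, 151.5 and 123.2 CPM in Control replicates 1 to 4, and 115.5, 117.9 and 138.3 CPM as the lowest, median and highest of BMAd-DTA. Control replicate 1 was the highest library and 5 of the 7 BMAd-DTA libraries were below every Control library, but Control replicate 4 lay among the BMAd-DTA values. The means were 164.3 ± 38.9 CPM (SD, n = 4) and 121.8 ± 8.27 CPM (SD, n = 7), a log2 fold change of -0.43 ± 0.12 (SE). The unadjusted p was 0.00252 and the adjusted p 0.0992 by edgeR, and the adjusted p was 0.0180 by DESeq2.

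The call on Hs6st1 rested on the Control libraries. Without Control replicate 1, the log2 fold change was -0.27 with an adjusted p of 0.340 by edgeR and 0.186 by DESeq2, and without Control replicate 2 DESeq2 gave 0.0872. Without Control replicate 4, edgeR gave -0.55 with an adjusted p of 0.0487 and the groups no longer overlapped. With a skeletal muscle score as a covariate, the log2 fold change was -0.40. In the library with the highest Hs6st1, Control replicate 1, the osteoblast and osteocyte sum was the lowest of all at 3417 CPM. The other Control libraries did not keep this order. Control replicates 2, 3 and 4 had sums of 11640, 13740 and 11600 CPM with Hs6st1 at 166.1, 151.5 and 123.2 CPM. The sum is mostly Col1a1 and Col1a2 and is not a count of bone cells, whose part in the Hs6st1 value was not tested.

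**Figure D2:**
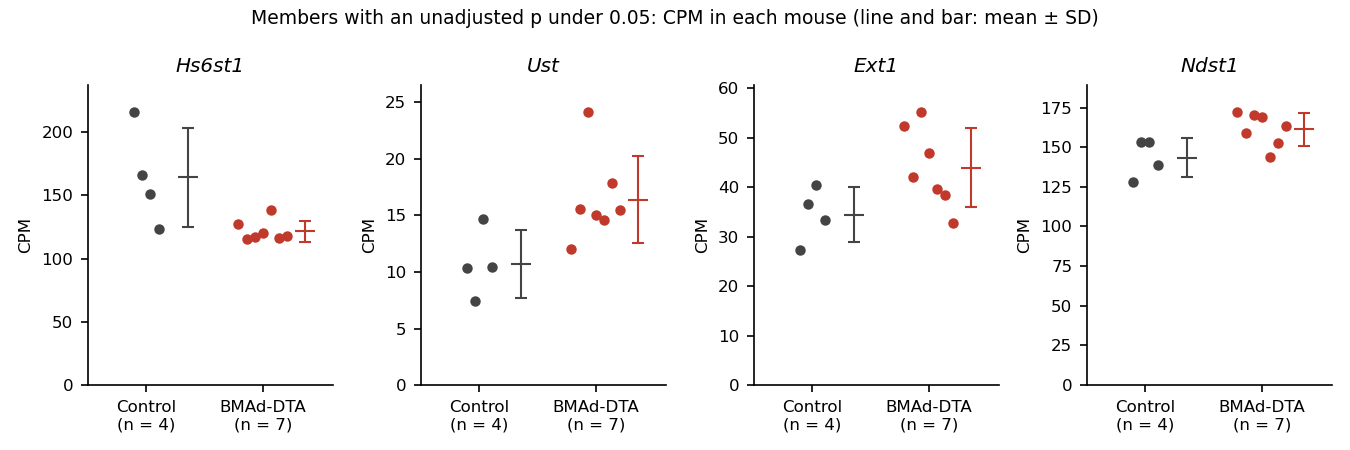
CPM of Hs6st1, Ust, Ext1 and Ndst1 in each of the 4 Control and 7 BMAd-DTA mice (dots), with the mean and SD beside them and axes starting at 0. Hs6st1 sits between 115.5 and 138.3 in BMAd-DTA mice with Control spread from 123.2 to 216.2, and in every panel the groups overlap.

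The other enzymes of heparan sulfate modification gave no unadjusted p under 0.05. Hs2st1, which sulfates uronic acid at the 2-O position, was at 0.18 ± 0.10 (SE) on the log2 scale, and Glce, the C5 epimerase that makes the iduronic acid this enzyme prefers, was at -0.05. The 3-O-sulfotransferases, which place a rare sulfate needed for antithrombin binding or other partners, were at -0.09 (Hs3st1), 0.11 (Hs3st3b1) and 0.08 (Hs3st3a1, under 1 CPM on average in both groups). Sulf1 and Sulf2 act outside the cell and remove 6-O-sulfate, the group that Hs6st1 adds. Sulf1 had a log2 fold change of -0.09 ± 0.13 (SE) and Sulf2 of 0.03 ± 0.09 (SE). Sulf1 made up a median of 9.11% of the pair per kilobase in Control and 8.45% in BMAd-DTA.

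Hs6st1 was also the most abundant heparan sulfate enzyme per kilobase of exon. Its Control mean was 29.6 CPM per kilobase, above the range of Sulf2, Ndst1 and Ndst2 at 17.6, 17.3 and 15.4 CPM per kilobase, whose ranges overlapped in that order. Extl3 at 11.2, Ext2 at 9.24 and Ext1 at 4.26 CPM per kilobase followed, with Extl2 at 4.50 between the last 2 and overlapping Ext1. Hs2st1, Hs3st1 and Glce had 2.73 to 3.03 CPM per kilobase and overlapped each other, with Hs2st1 also overlapping Ext1, and Sulf1 was lower at 1.80. Hs3st3b1, Extl1, Hs3st3a1, Ndst3 and Hs6st2 were all under 1 CPM per kilobase.

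**Figure D3:**
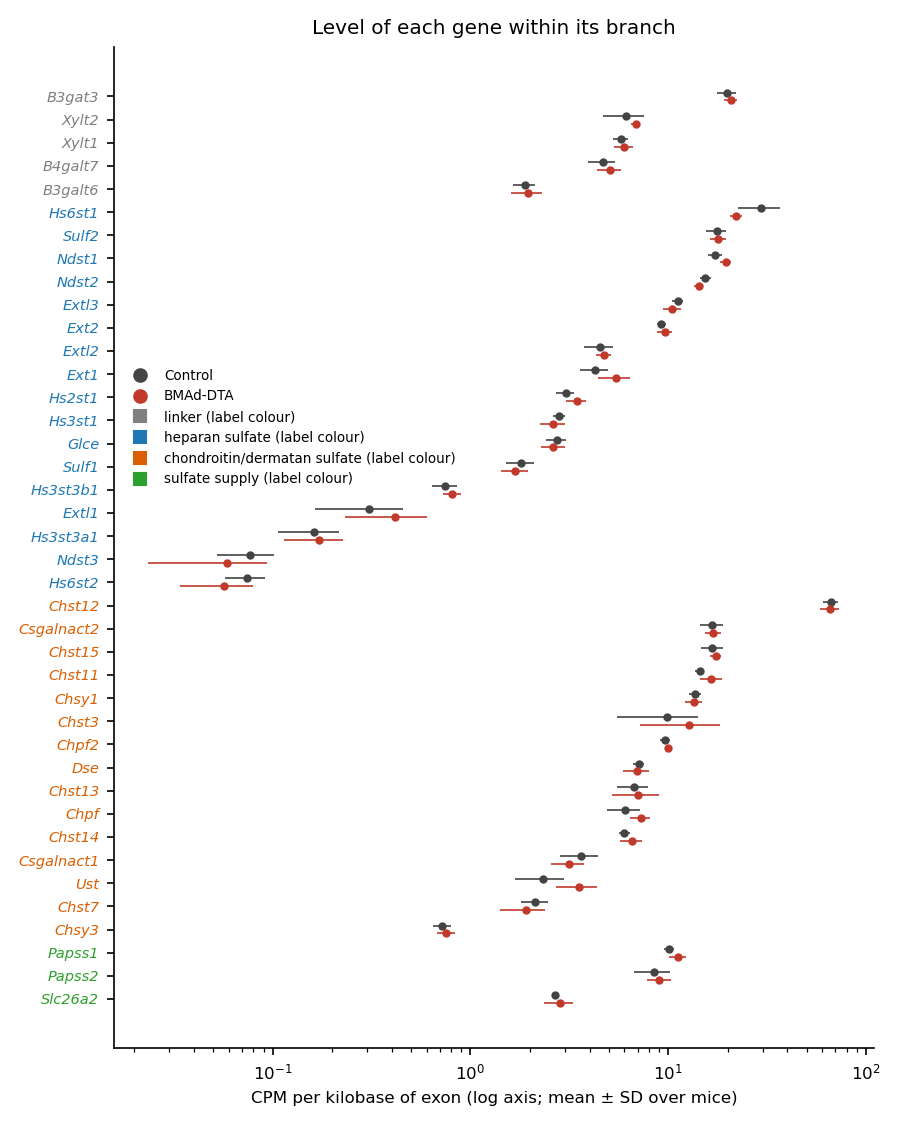
Mean level of all 40 members in CPM per kilobase of exon (log axis, bars of 1 SD over mice), sorted within each branch by the Control mean, with Control in grey and BMAd-DTA in red. Chst12 is the highest at 66.2 in Control, and the 2 groups sit close together in most genes.

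The chondroitin and dermatan sulfate branch had 10 of its 15 members fitted higher and 5 lower, and its median was 0.06 on the log2 scale. The unadjusted p was under 0.05 for Ust alone, against 16.4% of all genes tested. The branch summed to 722.2 to 765.4 CPM in Control and 749.8 to 810.8 CPM in BMAd-DTA mice. Without Control replicate 1, Ust and the 4-O-sulfotransferase Chst11 had an unadjusted p under 0.05, against 10.6% of all genes. The split of 10 and 5 was the same.

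Chain extension was measured by 6 genes. Csgalnact1 and Csgalnact2 add N-acetylgalactosamine and so commit a linker to chondroitin, and Chsy1, Chsy3, Chpf and Chpf2 form the polymerase. Csgalnact1 had the smallest log2 fold change of the branch at -0.21 ± 0.16 (SE), with an adjusted p of 0.578 by edgeR, and it was -0.06 without Control replicate 4. Its levels were 19.1, 16.7, 14.4 and 23.9 CPM in Control and 12.0, 16.6 and 19.8 CPM as the lowest, median and highest of BMAd-DTA. The groups overlapped, with Control replicate 4 the highest library and 3 BMAd-DTA libraries below every Control one. Csgalnact2 was at 0.01 on the log2 scale.

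Chpf, which works with the synthases in extending the chain, had a log2 fold change of 0.26 ± 0.13 (SE) and 5 of 7 BMAd-DTA libraries above every Control library, with an unadjusted p of 0.0561 and an adjusted p of 0.318 in the edgeR fit. Its lowest BMAd-DTA library, at 21.4 CPM, was below 3 of the Control libraries, and the log2 fold change was 0.16 without Control replicate 1. Chpf2 was at 0.04, Chsy1 at -0.03 and Chsy3 at 0.07.

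Among the sulfotransferases, Ust had the largest fitted value of all members. This enzyme puts sulfate on the 2-O position of uronic acid, mainly in dermatan sulfate, and its gene lies on chromosome 10 at 8204756 to 8518825 on the minus strand of GRCm38. Its level was 10.3, 7.42, 14.7 and 10.5 CPM in Control and 12.0, 15.5 and 24.2 CPM as the lowest, median and highest of BMAd-DTA. Of the 7 BMAd-DTA libraries, 5 were above every Control library, BMAd-DTA replicate 3 was the highest, and only Control replicate 3 reached into the BMAd-DTA range. Mean levels were 10.7 ± 2.98 CPM (SD, n = 4) and 16.4 ± 3.84 CPM (SD, n = 7). The log2 fold change was 0.61 ± 0.20 (SE), with an unadjusted p of 0.00810 and an adjusted p of 0.144 by edgeR and an adjusted p of 0.0373 by DESeq2.

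Leaving out single libraries changed the DESeq2 call on Ust but not its direction. DESeq2's adjusted p was 0.197 without Control replicate 1, 0.208 without Control replicate 2 and 0.0876 without Control replicate 4, and 0.0611 to 0.0794 without BMAd-DTA replicate 2, 3, 4 or 6. In the edgeR fits with 1 library left out, the log2 fold change stayed between 0.47 and 0.81 and the unadjusted p under 0.05 in each of the 11. The 3 libraries with the lowest Ust, all Control, had osteoblast and osteocyte sums of 3417, 11640 and 11600 CPM, and the library with the highest Ust had the highest such sum, 37110 CPM. The order was not kept in between, since the lowest Ust was in Control replicate 2 and not in the library with the lowest sum. Ust was also higher in Control replicate 3 (14.65 CPM, sum 13740 CPM) than in BMAd-DTA replicate 1 (12.02 CPM, sum 16650 CPM), and it was 15.59 CPM in BMAd-DTA replicate 2, with a sum of 32620 CPM. As the sum is mostly Col1a1 and Col1a2, it is not a count of bone cells, whose part in the Ust value was not tested.

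The 4-O-sulfotransferases give chondroitin 4-sulfate, the common form in cartilage and bone. Chst12 was the most abundant member of all per kilobase, at 66.2 CPM per kilobase in Control and 65.8 in BMAd-DTA. It had 176.6, 151.4, 147.1 and 150.1 CPM in Control and 136.0, 151.3 and 184.6 CPM as the lowest, median and highest of BMAd-DTA. The groups overlapped throughout, and its log2 fold change was -0.01 ± 0.09 (SE) with a 95% interval of -0.20 to 0.18. Chst11 was at 0.19 ± 0.09 (SE), with an unadjusted p of 0.0544 and an adjusted p of 0.314 by edgeR, and 4 of 7 BMAd-DTA libraries above every Control one. Chst13 was at 0.08 and Chst14, which sulfates dermatan, at 0.12. Dse, the epimerase that turns chondroitin into dermatan, was at -0.03, and Chst15, which adds a further sulfate to chondroitin 4-sulfate, was at 0.06.

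Sulfation of chondroitin at the 6-O position is the work of Chst3 and Chst7. Chst3 varied more between mice than any other member with a mean of at least 50 counts, and was singled out after its values were seen. Its levels were 32.5, 49.5, 94.5 and 78.7 CPM in Control replicates 1 to 4 and 53.0, 141.8, 43.1, 79.9, 97.2, 52.2 and 108.3 CPM in BMAd-DTA replicates 1 to 7. The groups overlapped widely. The log2 fold change of 0.37 ± 0.34 (SE) had a 95% interval of -0.38 to 1.11 and an adjusted p of 0.654 by edgeR, and without Control replicate 1 it was 0.15. Chst7 was at -0.17 ± 0.21 (SE) and held the smaller share of the pair per kilobase, with Chst3 at 69.0% to 89.3% in Control and 77.5% to 94.2% in BMAd-DTA.

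Chst3 ran beside the lymphocyte markers in part of the mice of both genotypes. The 7 markers summed to 229.4, 379.0, 558.5 and 500.4 CPM in Control replicates 1 to 4, the same order as Chst3. Most of the sum came from B-lineage genes, with Control means of 205.9 CPM for Cd79a and 102.7 CPM for Cd79b. The T cell genes Cd3e and Cd3d had Control means of 8.36 and 4.78 CPM. In BMAd-DTA replicates 1 to 7 they summed to 454.6, 1039, 464.7, 587.7, 630.4, 566.7 and 728.6 CPM, so the 4 libraries highest in Chst3 (replicates 2, 7, 5 and 4) were also the 4 highest in markers, in the same order. Replicates 6, 3 and 1 were the lowest of the group in both. Chst3 was at 52.2, 43.1 and 53.0 CPM in them, so replicate 1, lowest in markers, did not keep the order. BMAd-DTA replicate 6 also had less Chst3 than Control replicate 3, at 94.5 CPM, with a similar marker sum. All 7 markers were fitted higher in BMAd-DTA mice, with 3 of 7 at an unadjusted p under 0.05, against 16.4% of all genes tested. None was called by edgeR across all genes (smallest adjusted p 0.161). The lymphocyte list was set beside Chst3 after the values were seen, and the other marker lists were not all compared with it. The chondrocyte sums of Control replicates 1 to 4, at 453.0, 750.8, 923.7 and 771.1 CPM, had the same order as Chst3. In BMAd-DTA mice they did not keep it, with 1309 CPM in replicate 3, the lowest of that group in Chst3. The part of lymphocyte number in the Chst3 value was not tested.

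**Figure D4:**
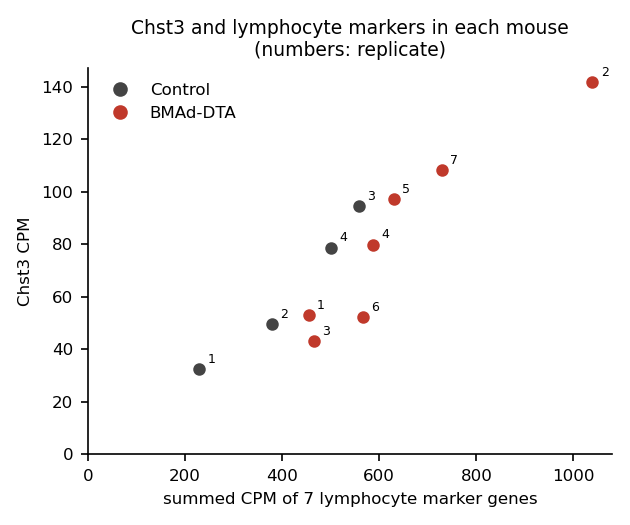
Chst3 CPM against the summed CPM of 7 lymphocyte marker genes in each mouse, with replicate numbers beside the points and both axes starting at 0. Points run from Control replicate 1 at 229.4 and 32.5 to BMAd-DTA replicate 2 at 1039 and 141.8, with scatter between. BMAd-DTA replicate 6 lies at 566.7 and 52.2, and Control replicate 3 at 558.5 and 94.5.

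Levels within the chondroitin branch spanned a wide range. After Chst12, Csgalnact2 and Chst15 were both at 16.7 CPM per kilobase in Control, with Chst11 at 14.4, Chsy1 at 13.7, Chst3 at 9.82 and Chpf2 at 9.65, and each overlapped its neighbour in this order. Dse, Chst13, Chpf and Chst14 lay between 5.999 and 7.09 CPM per kilobase and overlapped likewise. Csgalnact1 at 3.63, Ust at 2.32 and Chst7 at 2.13 were lower, again overlapping in that order, and Chsy3 at 0.722 CPM per kilobase was the lowest of the branch.

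Sulfate supply gave 3 members fitted higher, a median log2 fold change of 0.09 and no unadjusted p under 0.05. Papss1 and Papss2 make the sulfate donor PAPS, and Slc26a2 brings sulfate into the cell and is mutated in several human chondrodysplasias. Papss1, the most abundant of the 3 per kilobase at 10.1 CPM per kilobase, had 31.0, 30.6, 28.6 and 33.0 CPM in Control and 28.2, 35.9 and 37.9 CPM as the lowest, median and highest of BMAd-DTA. The groups overlapped with 4 of 7 BMAd-DTA libraries above every Control one, and the log2 fold change was 0.15 ± 0.09 (SE) with an adjusted p of 0.405 by edgeR. Slc26a2 had 33.8, 31.3, 33.7 and 33.8 CPM in Control and 29.3, 33.3 and 47.3 CPM as the lowest, median and highest of BMAd-DTA. BMAd-DTA replicate 3 was the only library above 36.7 CPM, and the log2 fold change was 0.08 ± 0.11 (SE). Papss2 was at 0.09, with Papss1 at a median of 55.6% of the pair in Control and 55.9% in BMAd-DTA.

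Genes of the proteoglycan core proteins, chain breakdown, hyaluronan and precursor supply were read from lists for comparison, and edgeR called none of them. These lists were chosen with earlier results of these data known. Of the 12 tested core proteins that carry heparan sulfate, 11 were fitted higher and 1 lower, and their median was 0.30 on the log2 scale. The unadjusted p was under 0.05 for 7 of the 12, against 16.4% of all genes tested. Gpc1, a glypican, was the highest of the 12 at 0.51 ± 0.15 (SE) and Agrn the lowest at -0.02. DESeq2, with 5.42% of all genes called, called 3, Sdc2, Sdc4 and Gpc1, all higher. In Sdc2, a syndecan, every BMAd-DTA library was above every Control library, at 58.7 to 77.03 CPM against 45.1 to 57.9 CPM, a pattern seen in 1.78% of all genes. With Control replicate 1 left out, all 12 were fitted higher, 4 had an unadjusted p under 0.05 against 10.6% of all genes, and the median was 0.28.

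Among the 11 tested chondroitin or dermatan sulfate core proteins, 8 were fitted higher and 3 lower, with a median of 0.35. The unadjusted p was under 0.05 for 4 of the 11, against 16.4% of all genes tested. Bgn (biglycan), which is abundant in bone matrix, had 832.5 to 1130 CPM in Control and 1376 to 1534 CPM in BMAd-DTA. These ranges did not overlap, a pattern seen in 1.78% of all genes. The log2 fold change of Bgn was 0.50 ± 0.09 (SE), with an adjusted p of 0.0531 by edgeR. DESeq2, with 5.42% of all genes called, called Bgn and Ptprz1 higher. The largest fitted value was that of Cspg5 at 0.72, on at most 23 counts in a library, and the smallest that of Vcan (versican) at -0.21. Acan (aggrecan) had 29.4 to 68.8 CPM in Control and 44.2 to 71.2 CPM in BMAd-DTA.

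**Figure D5:**
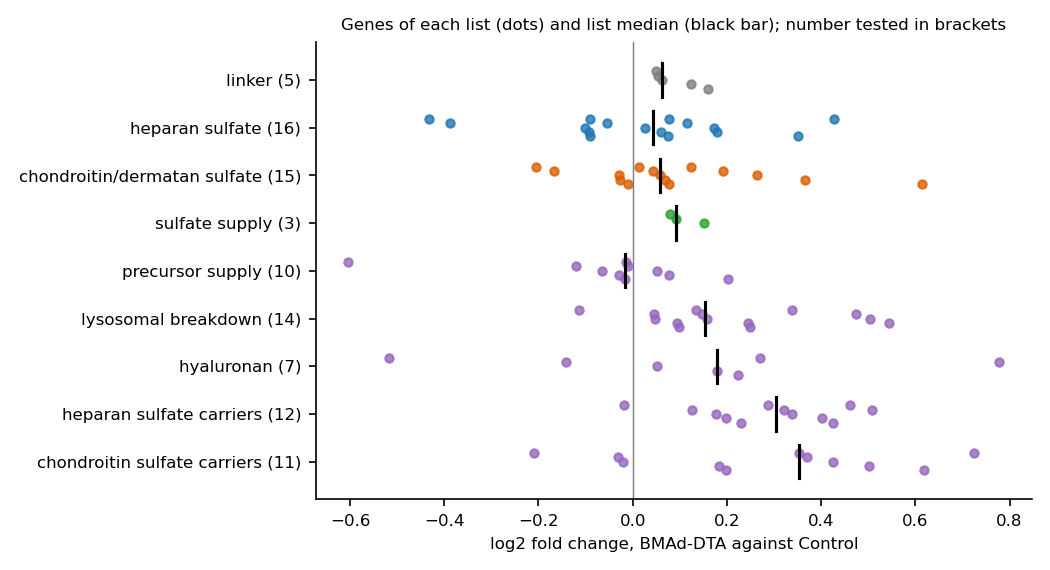
Log2 fold change of every tested gene (dots) in the 4 branches of synthesis genes and in 5 lists read for comparison, with the list median as a black bar and the number tested in brackets. Medians of the synthesis branches lie between 0.04 and 0.09, and those of the core proteins at 0.30 and 0.35.

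Of 14 genes listed for lysosomal breakdown of the chains, 13 were fitted higher, with a median of 0.15. The list holds degrading enzymes and also Sumf1, which is not one of them. The unadjusted p was under 0.05 for 5 of the 14, against the 16.4% of all genes given above. Leaving out Control replicate 1 gave 13 of 14 fitted higher and 3 at an unadjusted p under 0.05, against 10.6% of all genes. Naglu, which removes N-acetylglucosamine from heparan sulfate, had 25.9 to 39.9 CPM in Control and 41.6 to 55.6 CPM in BMAd-DTA without overlap, with a log2 fold change of 0.50 ± 0.11 (SE) and an adjusted p of 0.0720 by edgeR. DESeq2, with 5.42% of all genes called, called Naglu and Arsb, both higher. Glb1 had the largest fitted value at 0.54 and Hpse the smallest at -0.11. For hyaluronan, which is made without a core protein or sulfate, 5 of 7 tested genes were fitted higher. The unadjusted p was under 0.05 for 1 of the 7, against 16.4% of all genes tested. That gene was Cemip, which takes part in hyaluronan breakdown and had the largest value at 0.78 ± 0.16 (SE). Its adjusted p was 0.0675 by edgeR and 0.00055 by DESeq2, which alone called it, with 5.42% of all genes called. Cemip, like Naglu, was higher in BMAd-DTA mice without overlap, as were 1.78% of all genes. Hyal3 was the smallest at -0.52.

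Precursor supply brings the activated sugars and sulfate donor to the Golgi. Of 10 genes of precursor supply, 3 were fitted higher and 7 lower, with a median of -0.02. Only the PAPS transporter Slc35b2 had an unadjusted p under 0.05, at 0.20 ± 0.07 (SE) on the log2 scale, and Slc26a1 was the lowest at -0.60 ± 0.41 (SE). Of 4 further tested genes of chain synthesis, 2 were fitted higher and 2 lower, with Hs3st4 the largest at 0.54, Fam20b the smallest at -0.17 and Dsel, at 0.26, the one with an unadjusted p under 0.05. The difference between the core proteins and the enzymes was not tested, and the osteoblast and osteocyte sums given above were higher in every BMAd-DTA library than in any Control library.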

How the data were processed

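A strand-specific mRNA library was sequenced per mouse from the whole distal tibia (4 Control, 7 BMAd-DTA). The authors checked reads with FastQC 0.11.9, aligned them to mm10 with STAR and deposited counts of read pairs per gene without normalization, per library and as a merged table of 22600 genes. The merged counts were used, and they equal the sense-strand counts of each library. The annotation release is not given in the sources used here. Identifiers were joined to GENCODE M21 on GRCm38, and 99.9% matched. The labels give no replicate number, so libraries were numbered in accession order, and nothing states separate litters or batches.

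The test was edgeR 4.0.16 under R 4.3.3, with genotype as the only term (TMM scaling after filterByExpr, estimateDisp, glmQLFit, two-sided glmQLFTest). An adjusted p under 0.05 by Benjamini-Hochberg across 16496 genes was the threshold. The standard error is the log2 fold change over the square root of F. CPM per kilobase divides CPM by the union of exons. Alternatives were DESeq2 1.42.0, limma-voom (limma 3.58.1), RLE and upper quartile scaling, 2 other filters, the per-library counts, a skeletal muscle covariate and each library left out in turn. DESeq2 with a library left out was added after the data were seen. The members and lists were chosen with earlier results of these data known. Every Control value is given for members with an unadjusted p under 0.05. The same holds for the largest and smallest log2 fold change and the highest CPM per kilobase of each branch. For these members BMAd-DTA is given by its lowest, median and highest value, while Chst3 is given in every library. For comparison lists the largest and smallest log2 fold change are named. Chst3, Chpf, Chst11, the share of each paralog pair and genes named for DESeq2's call or for groups that did not overlap were added after their values were seen. So was the comparison of Chst3 with the lymphocyte markers. Tested on simulated counts of this comparison, in which 200 of 16228 to 16237 genes were given a log2 fold change of 1 or -1, edgeR found 67.5% to 74.5% of them and called 5 to 7 others. In the same simulations DESeq2, with 16493 to 16495 genes tested, found 73.5% to 79% and called 30 to 32 others, more than edgeR. A further gene of the lymphocyte marker list is not reported here and is not in its sums. The authors' own results from comparing the groups were not used.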

Additional observations from a re-analysis of the deposited data

Results flagged for a closer look

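Of 78 groups of libraries examined over the members with a mean of at least 10 counts, 5 held a library far from the others of its group, which is close to the share that chance gives, about 1 in 20. Chst12 was 177 CPM in Control replicate 1, with the nearest Control library at 151.4 CPM. Slc26a2 was 31.3 CPM in Control replicate 2, with the other Control libraries from 33.74 to 33.78 CPM, and 47.3 CPM in BMAd-DTA replicate 3, with the next at 36.65 CPM. B4galt7 was 19.2 CPM in BMAd-DTA replicate 3, with the next at 15.35 CPM. Chpf was 21.4 CPM in BMAd-DTA replicate 7, with the next at 27.28 CPM. No cause was tested for any of them.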

How the results depend on the processing

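Over all genes, 13 were called by edgeR, 845 by DESeq2, 20 by limma-voom, 20 with RLE scaling and 3 with the skeletal muscle covariate, and 0 to 292 with each library left out. edgeR called 0 genes in 4 of these fits, and 1784, 2239, 2626 and 2528 genes had an unadjusted p under 0.05 there: those leaving out Control replicates 1 and 2 and BMAd-DTA replicates 1 and 6. Without Control replicate 3 the count was 292, and without Control replicate 4 it was 89. Members called were 0 by edgeR and 2 by DESeq2, and with each library left out 0 to 1 by edgeR and 0 to 2 by DESeq2, which called 213 (without Control replicate 1) to 1394 genes (without Control replicate 3) in those fits. Members with an unadjusted p under 0.05 numbered 2 without BMAd-DTA replicate 1 or 3 and 8 without BMAd-DTA replicate 7, against 16%, 14.8% and 17.2% of all genes. Hs6st1 and Ust were among them in all 11 such fits. The median of the chondroitin branch ran from 0.0206 without Control replicate 4 to 0.119 without Control replicate 3. Members not overlapping between groups were 0 to 1, namely Ust without Control replicate 3, where 8.06% of all genes did not overlap, and Hs6st1 without Control replicate 4, where 6.05% did not. The cause was not tested.

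Directions turned only in members whose log2 fold change was within 0.1 of 0. Chst12 was 0.00386 with upper quartile scaling and 0.0278 with the muscle covariate, which also put Hs3st3a1 at -0.00491. With each library left out, the log2 fold change crossed 0 for Xylt1 (-0.000269 to 0.102), B3galt6 (-0.0158 to 0.124), Extl2 (-0.0245 to 0.175), Glce (-0.106 to 0.0149), Hs3st3a1 (-0.119 to 0.275), Sulf2 (-0.0430 to 0.0880), Chsy1 (-0.0742 to 0.0116), Chsy3 (-0.000218 to 0.119), Csgalnact2 (-0.0565 to 0.0835), Chst12 (-0.0548 to 0.0547), Chst13 (-0.0366 to 0.141), Chst15 (-0.00563 to 0.135), Dse (-0.0752 to 0.0149) and Slc26a2 (-0.00711 to 0.118). No paired analysis was possible because the labels give no replicate numbers and numbers given in accession order pair no libraries. Depth limits Extl1, Ndst3, Hs3st3a1 and Hs6st2, which had means under 2 CPM.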
